A study of Homo sapiens with 6 samples.

Results

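The genes of the cadherin-catenin adhesion complex examined here were 6 cadherins (CDH1, CDH2, CDH3, CDH4, CDH11 and CDH13) and 4 catenins (CTNNA1, CTNNB1, CTNND1 and JUP). These 10 members, of 63241 Ensembl genes in the count files, were matched by symbol and were chosen by family with their NCD-against-DMSO values already known. Their differences between the groups are therefore given as a description, with fold changes and standard errors and without p-values. The family name holds only loosely, since CDH1 to CDH4 are type I classical cadherins, CDH11 is a type II classical cadherin, and CDH13 is an atypical cadherin held in the membrane by a lipid anchor.

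Classical cadherins are transmembrane receptors that bind a cadherin of the neighbouring cell through calcium-dependent extracellular domains. Their cytoplasmic tail binds β-catenin or plakoglobin, which in turn bind α-catenin and through it actin, while p120-catenin binds nearer the membrane and holds the cadherin at the surface. β-Catenin is also the transcriptional effector of Wnt signalling. Loss of E-cadherin is a hallmark of mesenchymal breast cancer cell lines.

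RNA-seq was performed on MDA-MB-231 cells, a human line from triple-negative breast cancer with mesenchymal features, labelled as wild type in all samples. Cells received either 5 μM nitidine chloride (NCD), a benzophenanthridine alkaloid, or 0.1% DMSO as vehicle, and RNA was taken after 24 h from 3 samples per group. The labels do not say that the 3 samples came from separate cultures, so p-values and SDs measure only the spread between these samples. All samples share 1 cell line, 1 dose and 1 time, and the free-text notes of NCD2 and NCD3 carry different line numbers from their cell line field, which names MDA-MB-231.

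The DMSO libraries held 18223594 to 19410833 counts in all, and the NCD libraries 18232169 to 21629653. Of 15295 genes that passed the filter on low counts, 31.0% were called, that is, had an adjusted p below 0.05 with an absolute log2 fold change above 1 in edgeR's quasi-likelihood test. All 6 mesenchymal markers (VIM, CD44, AXL, CAV1, MET and ANXA1) exceeded 1 CPM (counts per library total after scaling by TMM, edgeR's trimmed mean of M-values) in both groups, and their summed level was 6409 to 6684 CPM with DMSO and 4175 to 4436 CPM with NCD. Of 7 luminal markers, 4 exceeded 1 CPM with DMSO and 5 with NCD, and their sum, led by KRT8, was 417 to 477 CPM and 571 to 681 CPM. Of 5 fibroblast markers, COL1A1 and PDGFRB exceeded 1 CPM and COL1A2 was at 0 in every library, with sums of 4.13 to 5.32 CPM and 18.6 to 19.9 CPM. The sums were 81.5 to 90.9 and 86.6 to 95.9 CPM for immune markers, where 1 of 5 (CD68) exceeded 1 CPM. For endothelial markers they were 11.03 to 16.35 and 8.795 to 11.38 CPM, and 1 of 5 (KDR) exceeded 1 CPM. The part of these marker shifts in the values of the adhesion genes was not tested. All samples were of 1 cell line, so the markers are not read as counts of other cell types. In bulk RNA, a change in every cell and a change in the share of cells with an mRNA cannot be told apart.

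With NCD, 3 of the 10 genes were called lower (CDH4, CDH11 and CTNNA1), where 17.5% of all tested genes were, and 1 was called higher (JUP), where 13.5% were. CTNNB1 and CTNND1 were tested and not called. The remaining 4, CDH1, CDH2, CDH3 and CDH13, had at most 6 counts in any library and did not pass the filter on low counts. The 3 NCD libraries lay below the 3 DMSO libraries for 7 of the 10 genes and above them for 3, or for 5 and 1 of the 6 tested genes. Among all tested genes the groups were separated in this way, downwards, for 35.3%, and upwards for 37.2%. At any fold, 69.3% of tested genes had an adjusted p below 0.05.

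**Figure D1:**
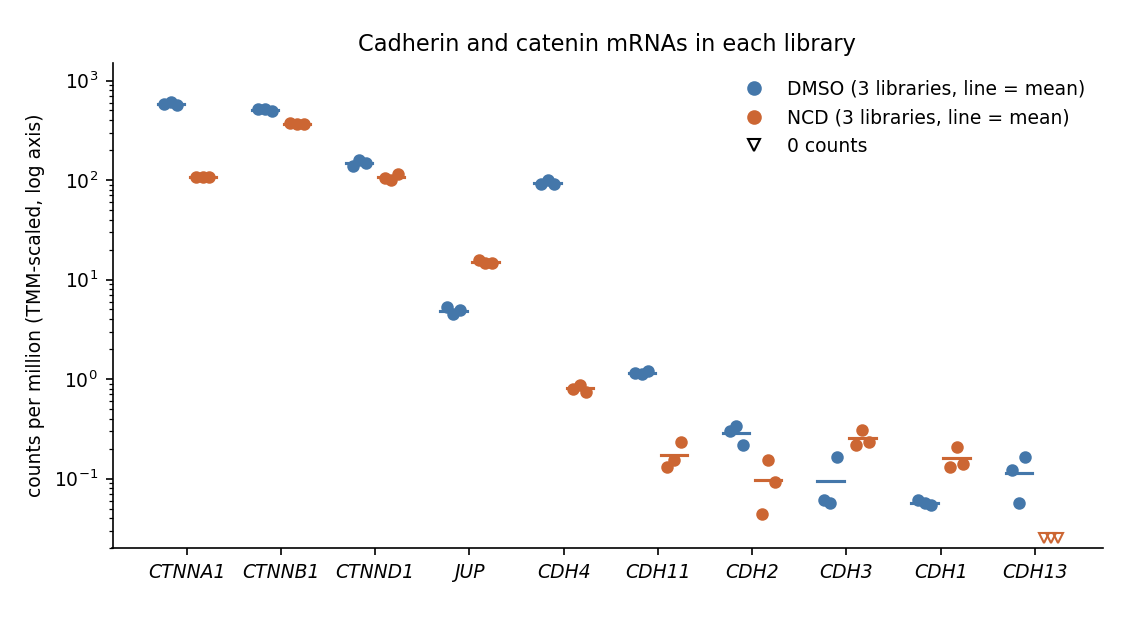
CPM (TMM-scaled) of each of the 10 genes on a log axis, with 1 point per library, DMSO in blue and NCD in orange, and a line at the mean of 3 libraries. CDH4 falls from 94.1 to 0.804 CPM and CTNNA1 from 587 to 107 CPM, JUP lies higher with NCD, and CDH13 has 0 counts in every NCD library (open triangles).

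CDH4 encodes R-cadherin, a type I classical cadherin first described in retina, and it was the only cadherin of the 6 whose mean exceeded 2 CPM in the DMSO samples. CDH4 (ENSG00000179242; chromosome 20, 61252426 to 61940617, plus strand, GRCh38, GENCODE release 29) had 1506, 1775 and 1663 counts with DMSO. With NCD it had 18, 17 and 16 counts. No NCD library approached the DMSO range, and the 3 NCD values lay close to each other. After TMM scaling this was 94.1 ± 5.47 CPM in DMSO samples and 0.804 ± 0.0685 CPM in NCD samples (mean ± SD, n = 3). The NCD mean was 0.854% of the DMSO mean. In the fit the log2 fold change was -6.86 with a standard error of 0.11, and 7 of the 15295 tested genes had a lower one. CDH4 made up 98.1% to 98.4% of the counts of the 6 cadherins in the DMSO libraries. With NCD the share was 60.0% (95% exact binomial interval 40.6 to 77.3) in NCD1, 51.5% (33.5 to 69.2) in NCD2 and 51.6% (33.1 to 69.8) in NCD3. These intervals cover counting error only.

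RefSeq promoter windows, from 250 bases before to 50 bases after an annotated start, are shown for the called genes with a window and for CTNNB1. They were searched on both strands for the E-box CACCTG, read as CAGGTG on the other strand, which Snail and ZEB repressors are known to bind, and for the GC-box GGGCGG, read as CCGCCC, which Sp-family factors bind. Of 35116 human windows in the same table, 20.6% held the E-box and 45.0% the GC-box, and the median GC content was 58.7%. Matches are written in capitals, and no E-box shared bases with a GC-box in the windows of these genes. A match describes the letters and does not show that a factor binds. The second CDH4 window, not shown, has 62.0% GC and neither motif. The first CDH4 window (chr20:61499171-61499470, plus strand, GRCh38.p14) has 57.3% GC and 1 E-box, and its start lies 247.0 kb inside the GENCODE gene:
CDH4: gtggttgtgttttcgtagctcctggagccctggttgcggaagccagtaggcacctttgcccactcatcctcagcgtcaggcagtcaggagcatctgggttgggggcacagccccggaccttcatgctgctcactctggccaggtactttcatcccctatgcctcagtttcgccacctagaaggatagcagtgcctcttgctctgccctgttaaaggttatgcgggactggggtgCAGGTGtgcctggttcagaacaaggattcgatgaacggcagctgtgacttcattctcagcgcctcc

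CDH11 encodes OB-cadherin, a type II cadherin of mesenchymal cells. CDH11 (ENSG00000140937; chromosome 16, 64943753 to 65126112, minus strand) was counted 19, 20 and 22 times with DMSO and 3, 3 and 5 times with NCD. The groups did not overlap, but all values were low, and the gene passed the filter only through the DMSO samples. Mean CPM ± SD (n = 3) was 1.16 ± 0.0396 for DMSO and 0.173 ± 0.0533 for NCD, which gave a log2 fold change of -2.70 with a standard error of 0.35. This standard error was over 3 times that of CDH4.

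The other 4 cadherins were at or near the limit of counting in both groups. CDH2 encodes N-cadherin, the cadherin commonly linked with mesenchymal cells. CDH2 (ENSG00000170558; chromosome 18, 27950966 to 28177446, minus strand) gave 5, 6 and 4 counts with DMSO, against 1, 3 and 2 with NCD. Summed over libraries this is 15 against 6 counts, a ratio of 0.330 between CPM values with a 95% counting interval of 0.105 to 0.900. CDH13 encodes T-cadherin, which lacks a cytoplasmic tail. CDH13 (ENSG00000140945; chromosome 16, 82626803 to 83800640, plus strand) had 2, 1 and 3 counts with DMSO and 0 in every NCD library. A count of 0 allows up to 0.131 to 0.155 CPM at these depths, and no fold is given because both groups were at or under 3 counts in every library. For the summed 6 against 0 counts, the 95% counting interval of the ratio reached from 0 to 0.701. The intervals of CDH2 and CDH13 pool the libraries of a group and leave out the spread between samples. Neither gene was called in the fit without a filter on low counts.

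CDH1 encodes E-cadherin, the epithelial cadherin, and CDH3 encodes P-cadherin, found in basal epithelium. Both lie on chromosome 16, where the end of CDH3 is 14.6 kb from the start of CDH1, and 4 of the 6 cadherins are on this chromosome. CDH1 (ENSG00000039068; 68737225 to 68835548, plus strand) had 1 count in each DMSO library and 3, 4 and 3 counts with NCD. CDH3 (ENSG00000062038; 68636189 to 68722616, plus strand) had 1, 1 and 3 counts with DMSO, against 5, 5.85 and 5 with NCD. The NCD libraries were the higher ones for both genes. The ratio of CPM over summed counts was 2.75 for CDH1 (95% counting interval 0.708 to 15.5) and 2.64 for CDH3 (0.924 to 9.21). Both intervals include 1, but they pool the libraries of a group, cover counting error only and are no test between the groups. With so few counts, no difference is read from them. A pseudogene on the same strand within CDH3, HSPE1P5, had up to 4 counts, so reads of CDH3 may have been divided with it.

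The 6 cadherins together summed to 1534, 1804 and 1696 counts with DMSO, against 30, 32.9 and 31 with NCD. Without CDH4 the sums were 28, 29 and 33 counts with DMSO, against 12, 15.8 and 15 with NCD. CDH4 thus carried nearly all counts of these 6 cadherins with DMSO, and no cadherin of the 6 exceeded 1 CPM on average with NCD. Cadherins outside the 6, such as FAT1, are given below.

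CTNNA1 encodes α-catenin, the link from the cadherin complex to actin, and it was the catenin with the highest level in the DMSO samples. CTNNA1 (ENSG00000044115; chromosome 5, 138610967 to 138935034, plus strand) gave 9728, 10749 and 10318 counts with DMSO, against 2449, 2059 and 2283 with NCD. The NCD libraries agreed closely after scaling, at 107.0, 106.5 and 106.4 CPM, and all lay far below the DMSO libraries at 586, 608 and 566 CPM. Mean CPM ± SD (n = 3) was 587 ± 21.3 for DMSO and 107 ± 0.304 for NCD. The log2 fold change was -2.46 with a standard error of 0.06, which is 5.50-fold lower with NCD. Of the 3 CTNNA1 windows not shown, the second has 74.7% GC and 4 GC-boxes, and the others have 42.3% and 44.7% GC and no GC-box. The first RefSeq window of CTNNA1 (chr5:138753175-138753474, plus strand, GRCh38.p14) has 77.7% GC, 9 GC-boxes, some of which share bases, and no E-box. Its start lies 142.5 kb inside the GENCODE gene, which leaves 181.6 kb to the gene's end:
CTNNA1: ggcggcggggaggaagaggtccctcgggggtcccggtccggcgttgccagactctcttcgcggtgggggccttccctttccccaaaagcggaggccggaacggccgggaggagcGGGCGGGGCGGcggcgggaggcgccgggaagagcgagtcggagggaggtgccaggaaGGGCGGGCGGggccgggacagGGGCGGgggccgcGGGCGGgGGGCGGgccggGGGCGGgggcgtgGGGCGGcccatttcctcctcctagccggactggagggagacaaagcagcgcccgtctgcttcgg

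CTNNB1 encodes β-catenin. CTNNB1 (ENSG00000168036; chromosome 3, 41194741 to 41260096, plus strand) gave 8611, 9141 and 9018 counts with DMSO, against 8586, 7087 and 7819 with NCD. Raw counts overlapped between the groups, but after scaling the NCD libraries were all below the DMSO libraries. Mean CPM ± SD (n = 3) was 510 ± 13.7 for DMSO and 369 ± 5.61 for NCD, a log2 fold change of -0.47 with a standard error of 0.05. ULK4 overlaps the gene on the opposite strand with at most 78 counts in a library. The RefSeq window of CTNNB1 (chr3:41199255-41199554, plus strand, GRCh38.p14) has 74.0% GC and 3 GC-boxes, and no E-box:
CTNNB1: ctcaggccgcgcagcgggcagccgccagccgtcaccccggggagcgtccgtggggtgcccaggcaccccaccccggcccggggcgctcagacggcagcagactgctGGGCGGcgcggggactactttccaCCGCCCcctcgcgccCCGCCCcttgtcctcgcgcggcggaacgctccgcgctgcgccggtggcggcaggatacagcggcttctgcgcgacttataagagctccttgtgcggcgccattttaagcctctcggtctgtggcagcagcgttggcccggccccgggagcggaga

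CTNND1 encodes p120-catenin, which protects cadherins from endocytosis. CTNND1 (ENSG00000198561; chromosome 11, 57753243 to 57819546, plus strand) had 2311, 2786 and 2729 estimated counts with DMSO, against 2375, 1930 and 2482 with NCD. As for CTNNB1, the groups overlapped in raw counts and separated after scaling. DMSO samples held 149 ± 9.20 CPM and NCD samples 106 ± 8.27 CPM (mean ± SD, n = 3). Its log2 fold change was -0.48 with a standard error of 0.08, within the standard errors of that of CTNNB1.

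JUP encodes plakoglobin (γ-catenin), a close relative of β-catenin that serves both adherens junctions and desmosomes, and it was the only catenin that was higher with NCD. JUP (ENSG00000173801; chromosome 17, 41754604 to 41786931, minus strand) gave 87, 79 and 90 counts with DMSO, against 358, 285 and 316 with NCD. Every NCD library had over 3 times the counts of every DMSO library. DMSO samples held 4.88 ± 0.389 CPM and NCD samples 15.0 ± 0.522 CPM (mean ± SD, n = 3). The log2 fold change was 1.62 with a standard error of 0.11, or 3.08-fold higher, and 832 tested genes had a higher one. The sum of the luminal markers was also higher with NCD, as given above, and its part in the JUP values was not tested. JUP has a pair of RefSeq windows on the minus strand (GRCh38.p14). The first (chr17:41786662-41786961) has 65.3% GC, 3 GC-boxes and no E-box, and the second (chr17:41785927-41786226), whose start lies 1.0 kb inside the gene, has 66.7% GC and 2 E-boxes:
JUP window 1: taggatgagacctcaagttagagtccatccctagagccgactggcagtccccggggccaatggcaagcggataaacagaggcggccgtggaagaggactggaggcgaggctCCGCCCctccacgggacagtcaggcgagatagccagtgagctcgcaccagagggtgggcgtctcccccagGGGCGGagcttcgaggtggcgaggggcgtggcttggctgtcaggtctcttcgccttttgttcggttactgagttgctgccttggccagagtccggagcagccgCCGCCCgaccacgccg
JUP window 2: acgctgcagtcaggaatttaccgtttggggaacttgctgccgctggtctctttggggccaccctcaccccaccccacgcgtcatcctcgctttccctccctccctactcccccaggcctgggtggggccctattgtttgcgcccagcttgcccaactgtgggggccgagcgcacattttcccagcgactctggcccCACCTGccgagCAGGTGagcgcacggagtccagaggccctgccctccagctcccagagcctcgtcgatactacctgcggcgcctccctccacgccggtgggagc

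Ratios between catenins within a library do not depend on how libraries are scaled. There were 1.13, 1.18 and 1.14 CTNNA1 counts per CTNNB1 count with DMSO, against 0.285, 0.291 and 0.292 with NCD. The ratio was thus 1.15 ± 0.0236 (SD, n = 3) with DMSO and 0.289 ± 0.00355 (SD, n = 3) with NCD, without overlap. The CTNND1 to CTNNB1 ratio was 0.292 ± 0.0204 (SD, n = 3) with DMSO and 0.289 ± 0.0249 (SD, n = 3) with NCD, and the libraries of the groups overlapped. JUP had 0.958 ± 0.0810 counts per 100 CTNNB1 counts (SD, n = 3) with DMSO and 4.08 ± 0.0804 (SD, n = 3) with NCD. Of the counts of the 4 catenins, CTNNA1 took 46.9% ± 0.333 with DMSO and 17.9% ± 0.224 with NCD (SD, n = 3), and CTNNB1 took 40.8% ± 0.682 and 61.8% ± 1.01. The share of JUP was the smallest of the 4 in both groups, at 0.391% ± 0.0385 with DMSO and 2.52% ± 0.0759 with NCD (SD, n = 3).

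**Figure D2:**
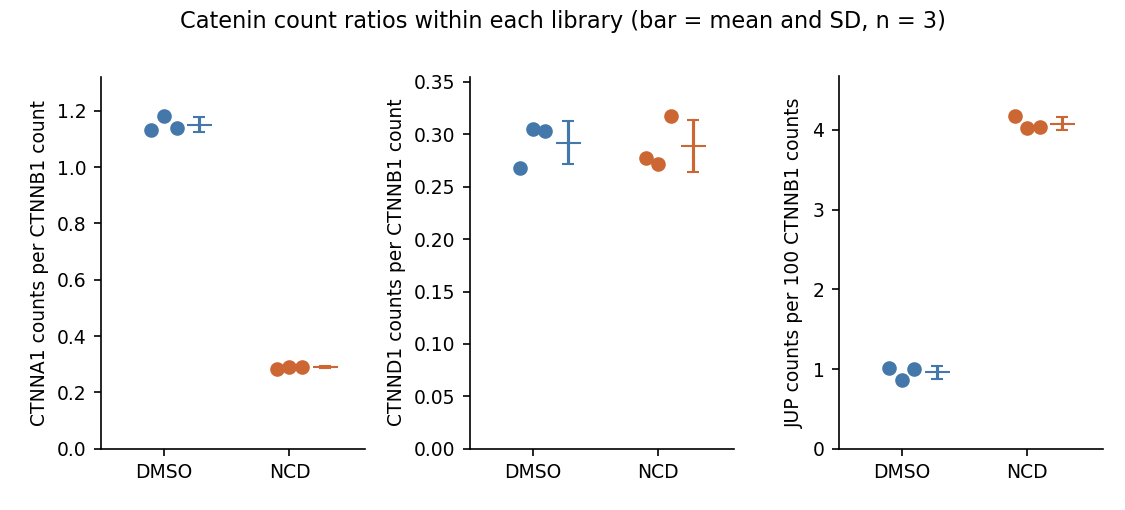
Ratios of catenin counts within each library on linear axes from 0, with 1 point per library and a bar for the mean and SD of 3 libraries. CTNNA1 per CTNNB1 count averages 1.15 with DMSO and 0.289 with NCD, CTNND1 per CTNNB1 count overlaps between the groups, and JUP per 100 CTNNB1 counts averages 0.958 and 4.08.

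Levels of different genes were compared as CPM per kilobase of annotated exon. With DMSO the order was CTNNA1 (66.4), CTNNB1 (42.8), CTNND1 (16.9), CDH4 (12.8), JUP (0.988), CDH11 (0.0868) and CDH2 (0.0579), and neighbours in it did not overlap between libraries. CDH3 (0.0150), CDH13 (0.0102) and CDH1 (0.00926) followed with overlapping ranges. With NCD, CTNNB1 led at 30.9, followed by CTNND1 (12.1) and CTNNA1 (12.1), whose ranges overlapped. When the longest transcript was used as the length, CTNNA1 (27.8) lay above CTNND1 (16.2) without overlap, so the order of this pair depends on the length chosen. JUP (3.04) was above CDH4 (0.109) with NCD, the opposite of their order with DMSO. The remaining cadherins lay at or below 0.0407.

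The annotated span of the genes, from the first to the last exon, was not used in choosing them. Deciles of span were formed over the tested genes that have a GENCODE span. CDH4 (688.2 kb), CTNNA1 (324.1 kb) and CDH11 (182.4 kb) belonged to the decile of tested genes with the longest spans, 153.1 kb or more, whose median log2 fold change was -2.09 and of which 79.2% were called lower. Within that decile of 1470 genes, 6 had a lower log2 fold change than CDH4, 482 a lower one than CDH11 and 570 a lower one than CTNNA1. CTNNB1 (65.4 kb) and CTNND1 (66.3 kb) lay among genes of 58.9 to 89.7 kb, with a median of -0.35. JUP (32.3 kb) lay in a decile of genes of up to 41.2 kb with a median of 0.11, and 64 of these 1469 genes had a higher log2 fold change than JUP. The place of span in these differences was not tested.

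**Figure D3:**
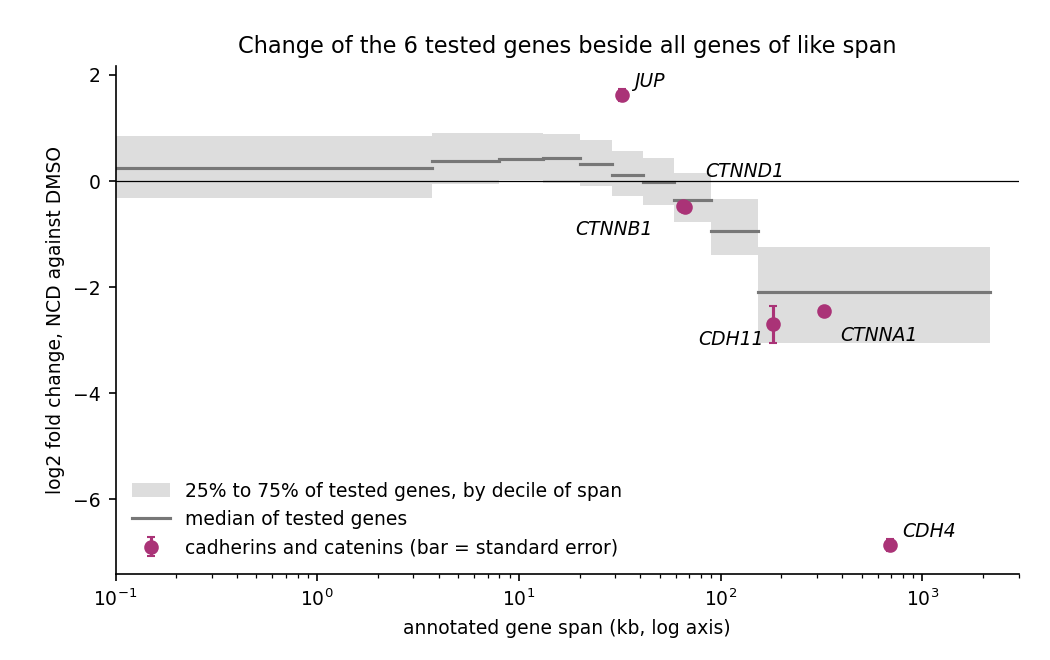
Log2 fold change with NCD against annotated gene span in kb (log axis) for the 6 tested genes, with standard errors. Behind them are the median (grey line) and the middle 50% (grey area) of tested genes with a GENCODE span, in deciles of span. CDH11 and CTNNA1 lie within the grey area of their decile, with CTNNB1 and CTNND1 in theirs, CDH4 lies far below it and JUP above it.

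Lists of other genes of cadherin adhesion and β-catenin signalling held 179 genes, of which 130 were tested. Of these, 41 (31.5%) were called lower and 20 (15.4%) higher, beside the 17.5% and 13.5% of all tested genes given above, and 69 were not called. Their median log2 fold change was -0.15, and that of all tested genes was 0.04. Their p-values came from the edgeR test named above and were adjusted by the Benjamini-Hochberg method over all tested genes. These lists too were drawn up with earlier results of the same samples known, so the p-values are no independent support for a direction of a list. The comparison with all tested genes was not matched for span. Among tested genes with a GENCODE span, 79.2% of those of 153.1 kb or more were called lower, against 3.0% of those of 13.2 to 20.1 kb. The part of span in the shares of the lists, together or singly, was not tested.

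Of 13 tested genes among other cadherins, 3 were called lower and 4 higher (median log2 fold change 0.81). FAT1, a giant atypical cadherin, fell from 248 ± 27.6 to 44.2 ± 4.91 CPM (SD, n = 3; log2 fold change -2.49, standard error 0.11, edgeR adjusted p = 1.03e-07). FAT4 (-2.77) and CELSR1 (-1.23) were the others that were lower. CDH24, a type II classical cadherin, rose from 8.77 ± 0.387 to 33.0 ± 2.43 CPM (SD, n = 3; log2 fold change 1.91, standard error 0.09, edgeR adjusted p = 2.55e-07). With NCD, CDH24 thus had a higher CPM than any of the 6 cadherins above, and PCDH1 (2.06) and CELSR2 (1.54) were also among the higher genes.

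Among 17 tested catenin relatives and actin linkers, 8 were lower and 2 higher (median -0.86). The lower genes included VCL, encoding vinculin, which binds α-catenin under tension, at 348 ± 18.7 CPM with DMSO and 79.7 ± 3.91 CPM with NCD (SD, n = 3; log2 fold change -2.13, standard error 0.07, edgeR adjusted p = 2.73e-08). PKP4, a p120-catenin relative, and ACTN1, an actin crosslinker, had log2 fold changes of -3.08 and -1.77. The genes called higher were AJUBA (1.11), a LIM protein that binds α-catenin, and ARVCF (1.18), another p120-catenin relative. Of 5 nectin genes tested, 1 was called, NECTIN3 (-1.79), an adhesion receptor linked to cadherin junctions through afadin. Of 7 desmosome genes tested, none was called lower and 2 were called higher, DSP (1.09), which encodes desmoplakin, a plakoglobin partner, and PKP3 (1.15), a plakophilin.

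The list of cadherin trafficking, phosphorylation and shedding genes had the most tested genes (23), and none was called higher (median -1.17). Of the 23, 12 (52.2%) were called lower, where 17.5% of all tested genes, not matched for span, were. The lower genes included the receptor phosphatases PTPRM (-4.58), which had 1245, 1674 and 1435 counts with DMSO, against 77, 77 and 66 with NCD, and PTPRJ (-2.91). The cytosolic phosphatase PTPN14 (-2.48) was also called. Of 12 tested p120-catenin partners, 4 were lower and 1 higher (median -0.70). ARHGAP35 (-1.65), which encodes a GTPase-activating protein, and VAV2 (-2.27), a guanine nucleotide exchange factor, were lower. CAMSAP3 (2.60), a microtubule minus-end protein of junctions, was higher, with 4, 6 and 7 counts with DMSO, against 43, 40 and 44 with NCD, and passed the filter only through the NCD samples. ROCK1 (-2.19) and ROCK2 (-2.75), kinases that promote actomyosin contraction, were lower but varied more within groups, with 271, 265 and 579 counts of ROCK1 in the NCD libraries.

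For the β-catenin side, 6 of 18 genes of the destruction complex and other β-catenin regulators were lower and 2 higher (median -0.05). DVL1, DVL2, DVL3 and CTNNBIP1 are among these other regulators. GSK3B, a kinase that phosphorylates β-catenin for degradation, fell from 76.5 ± 7.02 to 8.92 ± 1.19 CPM (SD, n = 3; log2 fold change -3.10, standard error 0.12, edgeR adjusted p = 5.72e-08). The ubiquitin ligase adaptors BTRC (-2.45) and FBXW11 (-1.44), which recognise phosphorylated β-catenin, were lower too, and DVL2 (1.29) and AXIN2 (1.22) were higher. Of 16 nuclear partners 4 were lower and 2 higher (median -0.10), with TBL1X (-3.40), TBL1XR1 (-2.44) and TCF7L2 (-2.22) lower and TLE2 (1.46) and TCF7 (1.05) higher. Of 12 tested Wnt target genes 1 was lower, ZNRF3 (-1.77), and 5 were higher (median 0.52). TCF7, called higher, and LEF1 are on this list and on that of nuclear partners. AXIN2, which is also on the list of the destruction complex, had 69, 64.4 and 73 counts with DMSO, against 197, 163 and 224 with NCD. SP5 (1.65) was also higher, and FGF18 had 0, 2 and 0 counts with DMSO, against 27, 17 and 16 with NCD. FGF18, which is 1 of the 5 higher genes, passed the filter only through the NCD samples.

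**Figure D4:**
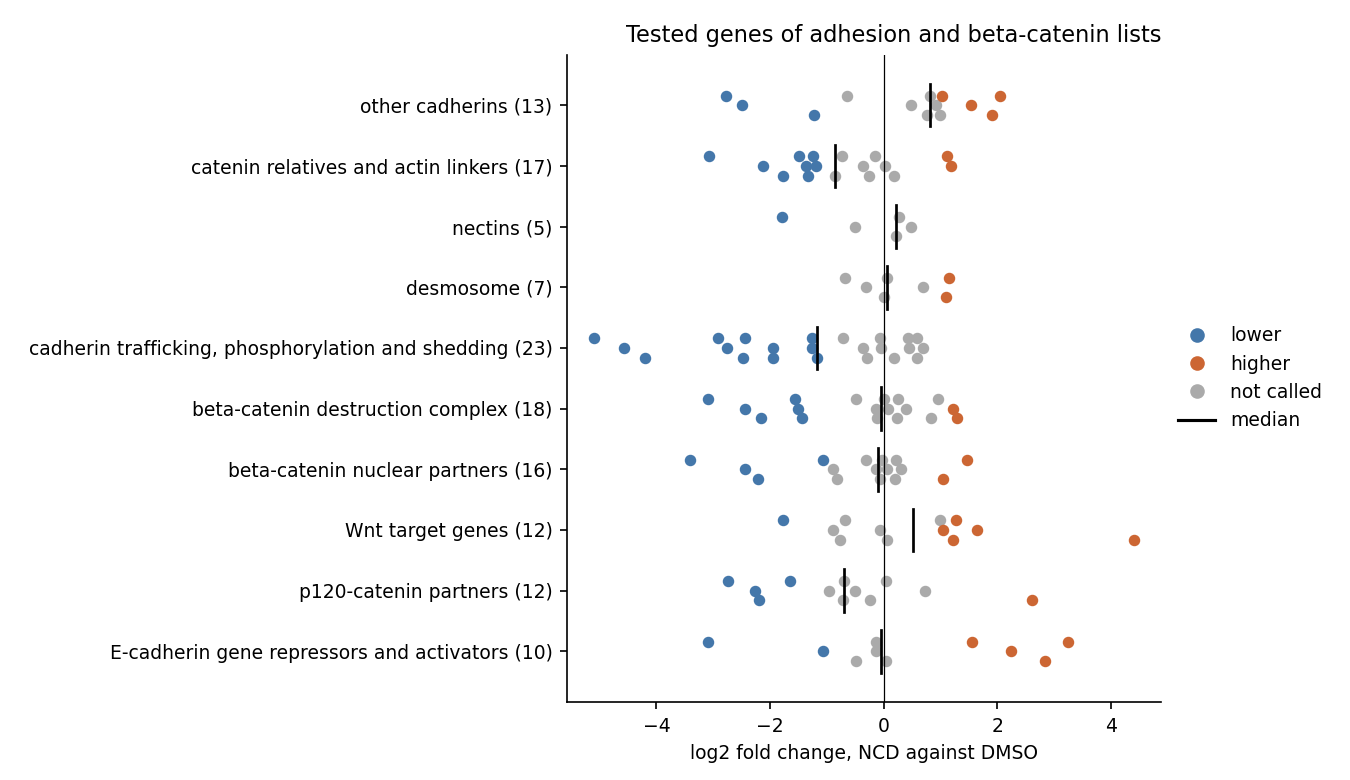
Log2 fold change with NCD of the 130 tested genes in 10 lists of adhesion and β-catenin genes, 1 point per gene and list, coloured by call. The number tested is in parentheses, and a line marks each list's median. Genes on more than 1 list (AXIN2, TCF7 and LEF1) are drawn in each. The medians run from -1.17 for cadherin trafficking, phosphorylation and shedding genes to 0.81 for other cadherins.

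Of 10 tested regulators of the E-cadherin gene, 2 were lower and 4 higher (median -0.05). ZEB1 and ZEB2, repressors of CDH1, had log2 fold changes of -3.10 and -1.07. SNAI1, which encodes another repressor of CDH1, rose from 0.873 ± 0.181 to 4.19 ± 0.293 CPM (SD, n = 3; log2 fold change 2.25, standard error 0.21, edgeR adjusted p = 1.43e-05). KLF4 (1.55) and ELF3 (2.84), which encode epithelial transcription factors, were also higher. ELF3 had 2, 4 and 3 counts with DMSO, against 28.48, 30 and 22 with NCD, and passed the filter only through the NCD samples. The same holds for FOXA1 (3.25), also called higher, with 2, 7 and 0 counts with DMSO, against 41, 36 and 30 with NCD. CDH1 itself had 1 count per DMSO library and 3 to 4 per NCD library, as given above. ZEB1 varied within groups as ROCK1 did, with 178, 143 and 301 counts in the NCD libraries.

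The genes most like CDH4 across the 6 libraries, by Pearson's r of log2(CPM + 0.5) among the 10492 protein-coding genes averaging 5 CPM or more, included DIPK1A (0.99998) and SCMH1 (0.99994). For CTNNB1, the catenin with the highest mean level over the 6 libraries, they were PKM (0.99987), MARCHF3 (0.99972) and KHDRBS1 (0.99956). With 3 libraries in each of 2 groups such values mainly describe the step between the groups, and 1386 genes had an r above 0.99 with CDH4 and 1046 with CTNNB1. They do not compare its size. Log2 fold changes were -1.72 for DIPK1A and -3.23 for SCMH1, beside -6.86 for CDH4. For PKM, MARCHF3 and KHDRBS1 they were -0.61, -1.48 and -0.53, beside -0.47 for CTNNB1.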

How the data were processed

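The authors deposited, for each library, expected counts per Ensembl gene without normalization; the submitters' processing notes name HISAT2, RSEM and GRCh38 (hg38). The annotation release and the strand setting are not given in the sources used here. In each library 25 lines of stray annotation text were skipped. Coordinates, spans and lengths came from GENCODE release 29, which holds 58228 of the 63241 identifiers. The edgeR package (4.0.16, R 4.3.3) was run on the rounded expected counts (filterByExpr, TMM scaling, glmQLFit and glmQLFTest without a replicate term), in place of the study's DESeq2, which was run as an alternative (1.42.0). A gene was called when its adjusted p (Benjamini-Hochberg) was under 0.05 with a log2 fold change beyond 1 either way. The chi-square per degree of freedom between libraries of a group was 2.05 to 15.4, so none was a duplicate. Totals of about this depth measure genes of a few counts poorly.

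The members and lists were chosen with earlier results of these data known. All 10 members were named, with up to 3 called genes per direction and list by smallest p (all where 5 or fewer were called), the markers, and the 3 genes most like 1 cadherin and 1 catenin. Some genes under this rule are not reported here. Alternatives were DESeq2, RLE and library-total scaling, other filters, no fold threshold, a replicate block, the longest transcript as length, and each library left out. The steps were tested on simulated data. Tables and figures used Python 3.11.15, pandas 2.3.3, numpy 2.4.6, scipy 1.17.1 and matplotlib 3.10.9.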

Additional observations from a re-analysis of the deposited data

How the results depend on the processing

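No alternative changed the direction or the call of CDH4, CTNNA1, CTNNB1, CTNND1 or JUP, apart from the removal of the fold threshold. CDH11 was not tested when at least 10 counts were required in every library, which left 2 of the 10 genes called lower instead of 3. Without a fold threshold 10602 genes were called instead of 4736, 5 of the 10 genes were lower, with CTNNB1 and CTNND1 added, and 63 list genes were lower and 40 higher, instead of 41 and 20, by construction. Leaving out each library in turn gave 4653 to 5049 called genes, 3 of the 10 genes lower and 1 higher each time, and 41 to 43 list genes lower and 18 to 23 higher. The log2 fold change ranged over the alternatives from -6.93 to -6.67 for CDH4, -2.99 to -2.51 for CDH11, -2.52 to -2.26 for CTNNA1, -0.52 to -0.27 for CTNNB1, -0.56 to -0.29 for CTNND1 and 1.55 to 1.82 for JUP. Scaling by library totals moved the median of all tested genes from 0.04 to 0.23 and the share of higher among called genes from 43.6% to 56.2%. The level of CTNNA1 over that of CTNNB1 with DMSO was 1.55 per exonic length and 1.47 with the longest transcript as length. A replicate block in the model gave 4723 called genes, and no call of the 10 genes changed. Correlations of same-numbered deviations were 0.216, -0.185 and 0.0226. They cannot settle whether same-numbered samples were handled together, which the labels do not state. Depth limits CDH1, CDH2, CDH3 and CDH13.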
